A study of Mus musculus with 3 samples.

Results

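The insulin-like growth factor (IGF) system of day 5 ectopic masses is described here by 10 genes out of 31053 in the count files. They were chosen by symbol and comprise the ligands *Igf1* and *Igf2*, the receptors *Igf1r* and *Igf2r*, and the binding proteins *Igfbp2* to *Igfbp7*. All mice were female CD-1, a genetically mixed (outbred) stock, aged 6 to 8 weeks, and all carried subcutaneous implants of Matrigel, a basement membrane gel, for 5 days. The Matrigel-only mice received no further agent, whereas the Vehicle mice carried Matrigel with rhBMP2, recombinant human bone morphogenetic protein, and were given corn oil/DMSO by mouth. The Palo mice carried the same rhBMP2 implants and received oral palovarotene, an agonist of the retinoic acid receptor gamma, at 4 mg/kg. Each group was 1 droplet library (10x Chromium) made from pooled masses, so no difference between groups has a replicate check, no test was run, and a library cannot be told apart from its treatment.

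IGF ligands signal through the tyrosine kinase receptor *Igf1r*, while *Igf2r*, which also carries mannose 6-phosphate enzymes to lysosomes, takes up *Igf2* and removes it. The binding proteins hold the ligands in body fluids and matrix and release them when proteases such as *Pappa* cut them. In the skeleton, IGF signalling is known for its part in the growth of cartilage and bone. Macrophages and fibroblasts are both known sources of *Igf1* at sites of tissue repair.

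The genes lie, on mm10 with GENCODE vM21 gene bounds, at chr10:87858265-87937042 on the + strand (*Igf1*), chr7:67952827-68233668 on + (*Igf1r*), chr17:12682406-12769664 on - (*Igf2r*), chr1:72824503-72852474 on + (*Igfbp2*), chr11:7206086-7213923 on - (*Igfbp3*), chr11:99041244-99054392 on + (*Igfbp4*), chr1:72857932-72874884 on - (*Igfbp5*), chr15:102144362-102149511 on + (*Igfbp6*) and chr5:77349240-77408041 on - (*Igfbp7*). *Igfbp2* and *Igfbp5* are thus neighbours on chromosome 1 and are read towards each other. All 10 of 10 members matched RefSeq's table of gene starts (build GRCm38.p6), with 14 start sites between them. The windows upstream of *Igfbp5* and *Igfbp6* are printed because the levels of both varied together across the stromal cells. That of *Igfbp4* is printed because its level in those cells, though not in macrophages, differed less than theirs between the libraries. Each sequence runs 5′ to 3′ in the direction of its gene, ends at the base before the RefSeq start (which for *Igfbp6* lies upstream of the GENCODE start) or, for *Igfbp5*, at the base before the GENCODE exon (19 bases inside that exon left out), and has the TATA box letters TATAAA, or TTTATA for the other strand, in capitals.
*Igfbp5*: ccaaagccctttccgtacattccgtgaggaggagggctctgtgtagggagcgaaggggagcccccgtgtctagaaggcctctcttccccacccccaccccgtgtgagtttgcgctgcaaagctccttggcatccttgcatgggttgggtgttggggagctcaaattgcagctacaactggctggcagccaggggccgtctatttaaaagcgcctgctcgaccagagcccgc
*Igfbp6*: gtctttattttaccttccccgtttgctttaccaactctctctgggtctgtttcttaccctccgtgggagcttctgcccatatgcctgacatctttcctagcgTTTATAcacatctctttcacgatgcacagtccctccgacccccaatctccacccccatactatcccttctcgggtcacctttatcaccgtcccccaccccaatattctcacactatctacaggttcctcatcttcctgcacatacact
*Igfbp4*: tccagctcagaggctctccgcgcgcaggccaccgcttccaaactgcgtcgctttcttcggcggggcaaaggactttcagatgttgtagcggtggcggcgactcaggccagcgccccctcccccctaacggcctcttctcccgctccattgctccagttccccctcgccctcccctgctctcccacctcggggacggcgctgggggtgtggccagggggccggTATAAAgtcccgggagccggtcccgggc
The *Igfbp5* window is chr1:72874885-72875115 (- strand, 231 bases), the *Igfbp6* window chr15:102143936-102144185 (+ strand, 250 bases) and the *Igfbp4* window chr11:99040994-99041243 (+ strand, 250 bases). The capitals stand 28 bases before the start in *Igfbp4* and 148 bases before it in *Igfbp6*, and the *Igfbp5* window holds none. In windows of 250 bases read on both strands, TATAAA was found in 2 of 14 member windows and in 12.4% of all 32851 windows of the table. AGGTCA, a half-site of nuclear receptors, was found in 4 of 14 (14.0% of all), ACGTG, a hypoxia core whose reverse CACGT overlaps it within CACGTG, in 4 of 14 (16.6%), and the GC box GGGCGG in 6 of 14 (32.7%). None of these 3 motifs was in the 3 printed windows. These are matches of letters and not measured sites.

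After cells with fewer than 200 or more than 6000 genes or over 5% mitochondrial UMIs (unique molecular identifiers, 1 per captured RNA molecule) were left out, 8728 of 9249 Matrigel-only, 5478 of 6065 Vehicle and 7297 of 7905 Palo barcodes remained, from libraries of 44252421 to 46901673 UMIs. Stromal cells were those with at least 1% of their UMIs from *Col1a1*, *Col1a2*, *Col3a1*, *Dcn* and *Lum*, and macrophages those below 1% in which *Csf1r* or *C1qa* was detected. There were 2085 Matrigel-only, 1373 Vehicle and 1184 Palo stromal cells, with medians of 9082, 17114 and 12955 UMIs, and 5812, 3253 and 5661 macrophages, with medians of 3090.5, 3646 and 4254 UMIs. Levels are in CPM, the counts of a gene scaled to an equal total of UMIs of the class and not scaled for gene length. All 16 stromal genes outside the gate exceeded 10 CPM in the stromal cells, and all 15 macrophage markers did in the macrophages. The macrophage markers include *Csf1r* and *C1qa*, which define that class, so their presence there follows from the gate. These 15 summed to 40898 Matrigel-only, 30172 Vehicle and 40471 Palo CPM in the macrophages. The 10 endothelial markers summed to 62.3 Matrigel-only, 12.1 Vehicle and 39.9 Palo CPM in the stromal cells, lowest in Vehicle like the called members, and 2, 0 and 2 of them reached 10 CPM (*Tek* and *Kdr*). *Pecam1*, another of the 10 endothelial markers, was between 0.75 and 0.81 CPM. The 10 pericyte and smooth muscle markers summed to 370 Matrigel-only, 1248 Vehicle and 700 Palo CPM there, with *Acta2* as the main gene in Vehicle (828), while the pericyte gene *Rgs5* was below 1. The 15 macrophage markers stood in stromal cells at a median of 3.86%, 1.47% and 2.93% of their macrophage level in Matrigel-only, Vehicle and Palo. The 4 erythroid markers summed to 6.43, 150 and 4.04 in the stromal cells and to 141, 566 and 222 in the macrophages. The 8 adipocyte markers summed to 65.3, 14.0 and 2.46 CPM in the stromal cells and to 132, 13.2 and 10.5 in the macrophages. Markers of other leukocytes in the macrophages were mostly highest in Vehicle. In the same order, T and natural killer cell markers summed to 5.99, 58.2 and 5.28 CPM and dendritic cell markers to 117, 212 and 114. Neutrophil markers summed to 38.4, 107 and 33.5, basophil markers to 0.884, 30.7 and 1.89, and B cell markers to 148, 76.6 and 110. The part of these other RNAs in the results below was not tested. The libraries shared 8 to 17 barcodes pairwise.

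Levels carry exact Poisson 95% intervals. Shares of cells with a UMI are given after each cell was thinned to 3100 UMIs (stromal) or 1400 (macrophages). All intervals cover counting error only. A gene was compared when its mean level over the 3 libraries was at least 10 CPM, and called at 2-fold. Of the 10 members, 9 passed in stromal cells and 5 in macrophages. *Igfbp2* in stromal cells and *Igfbp7* in macrophages passed although 1 library lay below 10 CPM.

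In stromal cells, *Igfbp5*, *Igfbp6*, *Igfbp2*, *Igf2r* and *Igf1* were at least 2-fold lower in Vehicle than in Matrigel-only, and 4 of these 5 were at least 2-fold higher in Palo than in Vehicle. The log2 ratios of *Igf1r* and *Igfbp7* stayed between -0.16 and 0.37 in all 3 comparisons. For Vehicle over Matrigel-only, 0 members were 2-fold higher and 5 were 2-fold lower, where 4.02% of all 8687 genes were higher and 9.13% lower. The median log2 ratio was -1.04 for the members and -0.03 for all genes. For Palo over Vehicle, 4 members were higher and 0 lower, against 6.83% and 3.93% of all genes, with medians of 0.86 and 0.01. For Palo over Matrigel-only, 0 members passed 2-fold either way, against 0.76% higher and 1.78% lower of all genes, with medians of -0.18 and -0.02. The first 2 comparisons share the Vehicle library, so a level that is low there appears in both with opposite sign, and the third shares a library with each. The levels are therefore given side by side below.

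**Figure D1:**
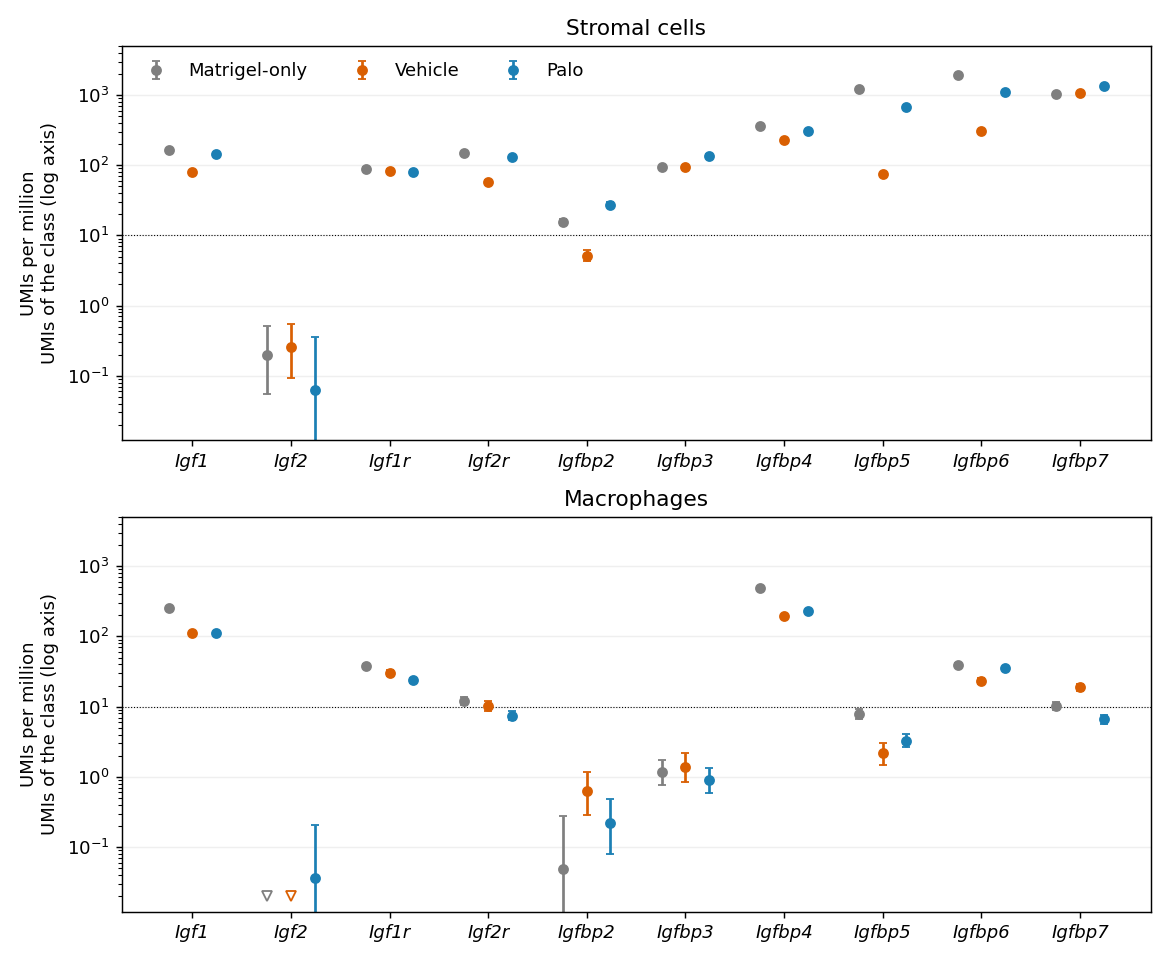
Level of each member (vertical axis, CPM, log scale) in stromal cells (top) and macrophages (bottom) of the 3 libraries, 1 point per library with its 95% Poisson interval (counting error only); open triangles mark 0 UMIs and the dotted line is 10 CPM. *Igfbp5* in stromal cells sits at 1219 for Matrigel-only, 75.0 for Vehicle and 683 for Palo, whereas *Igf1r* and *Igfbp7* are nearly level.

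Among the ligands, *Igf1*, the main postnatal IGF, stood at 165 CPM (160 to 171) in Matrigel-only stromal cells, 80.2 (76.7 to 83.9) in Vehicle and 145 (139 to 151) in Palo. The Vehicle library was the low one, and the other two lay close together. The log2 ratio was -1.04 (-1.12 to -0.96) for Vehicle over Matrigel-only, just past 2-fold (-0.97 with TMM scaling, which is short of it), and 0.86 (0.77 to 0.95) for Palo over Vehicle, just short of it. At equal depth, 25.9% of Matrigel-only, 16.1% of Vehicle and 26.0% of Palo stromal cells held an *Igf1* UMI. By share, Matrigel-only and Palo could thus not be told apart, although the level was higher in Matrigel-only. Without thinning these shares were 37.8%, 33.6% and 45.1%. Lymphocytes, which should lack it, held *Igf1* in 0 of 257 Vehicle cells (median 2045 UMIs), which allows a share of up to 1.43%.

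*Igf2*, the fetal ligand, was counted only 4, 6 and 1 times in Matrigel-only, Vehicle and Palo stromal cells and 0, 0 and 1 times in macrophages. A gene of the same strand, *Gm49394* (chr7:142650769-142669942), covers nearly all of *Igf2* (chr7:142650766-142666816) and had 0 UMIs. Reads that fall in 2 genes of 1 strand are not assigned by such counting, so no level of *Igf2* can be read from these counts.

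Of the receptors, *Igf1r* stood at 89.2 CPM (85.1 to 93.5) in Matrigel-only, 83.6 (80.0 to 87.4) in Vehicle and 80.0 (75.6 to 84.5) in Palo stromal cells. Neighbours in that order overlapped in their intervals. *Igf2r* stood at 151 CPM (145 to 156), 58.5 (55.5 to 61.7) and 131 (126 to 137) in the same order, again lowest in Vehicle. Its log2 ratios were -1.36 (-1.46 to -1.27) for Vehicle over Matrigel-only, 1.17 (1.07 to 1.27) for Palo over Vehicle and -0.20 (-0.28 to -0.12) for Palo over Matrigel-only. At equal depth 35.2%, 16.7% and 32.1% of the cells held an *Igf2r* UMI, and 63.6%, 55.2% and 71.4% without thinning. *Igf2r* overlaps the antisense gene *Airn* (chr17:12741311-12860136), which had 1471 UMIs, only on the side where *Igf2r* starts. The use of strand in counting was not stated, so reads from that stretch could belong to either gene.

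The largest differences between Vehicle and Matrigel-only among the members were those of *Igfbp5*, which binds to extracellular matrix, and *Igfbp6*, which prefers *Igf2* over *Igf1*. *Igfbp5* stood at 1219 CPM in Matrigel-only, 75.0 (71.6 to 78.6) in Vehicle and 683 (670 to 696) in Palo stromal cells, from 24443, 1770 and 10813 UMIs. It was thus 16.2-fold lower in Vehicle than in Matrigel-only (log2 ratio -4.02, -4.09 to -3.95) and 9.10-fold higher in Palo than in Vehicle (3.19, 3.11 to 3.26). Palo stayed below Matrigel-only, with a log2 ratio of -0.84 (-0.87 to -0.80). At equal depth 49.8% of Matrigel-only, 5.16% of Vehicle and 39.1% of Palo stromal cells held *Igfbp5*, and 60.9%, 9.91% and 54.2% without thinning. Of the Vehicle lymphocytes 0.778% held it, and 0 of 76 Matrigel-only lymphocytes (median 1457 UMIs) did, which allows a share of up to 4.74%. In Vehicle the gene was concentrated in few cells, as 10 cells held 54.6% of its UMIs, against 5.47% in Matrigel-only and 12.3% in Palo. A single Vehicle cell held 258 of the 1770 UMIs, and without the highest cell of each library the log2 ratio of Vehicle over Matrigel-only was -4.24.

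*Igfbp6* followed the same order with a smaller range. It stood at 1918 CPM in Matrigel-only, 310 (303 to 317) in Vehicle and 1107 in Palo stromal cells. The level in Vehicle was 6.19-fold below that in Matrigel-only (log2 ratio -2.63, -2.67 to -2.59), and the level in Palo was 3.57-fold above that in Vehicle (1.84, 1.80 to 1.88). Palo over Matrigel-only gave -0.79 (-0.82 to -0.77). Unlike *Igfbp5*, it was still widespread in Vehicle: 41.3% of those cells held it at equal depth, against 78.7% in Matrigel-only and 64.7% in Palo (73.5%, 87.2% and 80.6% without thinning). Of the shallower Vehicle lymphocytes (median 2045 UMIs), 1.17% held it without thinning.

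*Igfbp2* was rare in every library. Its 312 Matrigel-only, 121 Vehicle and 436 Palo UMIs gave 15.6 (13.9 to 17.4), 5.13 (4.26 to 6.13) and 27.5 CPM (25.0 to 30.2), and the 10 highest cells held 68.3%, 84.3% and 53.9% of them. Only 1.47%, 0.841% and 3.52% of the cells held it at equal depth (2.30%, 1.97% and 5.91% without thinning). The log2 ratios of -1.60 for Vehicle over Matrigel-only and 2.42 for Palo over Vehicle therefore rest on a few cells. Palo over Matrigel-only gave 0.82 (0.61 to 1.04), and 1.28 when each cell counted equally.

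*Igfbp3*, the main carrier of IGFs in serum, stood at 94.1 CPM (89.9 to 98.4) in Matrigel-only, 93.1 (89.3 to 97.1) in Vehicle and 137 (131 to 143) in Palo stromal cells. Matrigel-only and Vehicle could not be told apart, and Palo was higher by a log2 ratio of 0.56 over Vehicle. *Igfbp4*, which holds IGFs away from the receptor until it is cut, stood at 360, 230 and 312 CPM, and at equal depth 50.8%, 32.8% and 46.8% of the cells held it (70.3%, 58.8% and 73.6% without thinning). Its log2 ratios were -0.65 (-0.70 to -0.60) for Vehicle over Matrigel-only and 0.44 (0.38 to 0.50) for Palo over Vehicle, neither past 2-fold. *Igfbp7*, a related protein with low affinity for IGFs, stood at 1030, 1051 and 1331 CPM, and 82.2%, 89.6% and 87.5% of the cells held it (89.1%, 96.4% and 96.1% without thinning). *Igfbp7* overlaps the last bases of *Polr2b*, which had 4338 UMIs. For *Igfbp3*, held by 13.9%, 16% and 17.3% of cells, and *Igfbp7* the order of the libraries differed between level and share at equal depth. The libraries that changed places overlapped in the intervals of their shares. As plain UMI counts not scaled for length, *Igfbp7* supplied 22.2% of the UMIs of the 6 binding proteins for Matrigel-only, 59.6% for Vehicle and 37.0% for Palo stromal cells, since the sum of the 6 was 4637, 1764 and 3597 CPM.

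**Figure D2:**
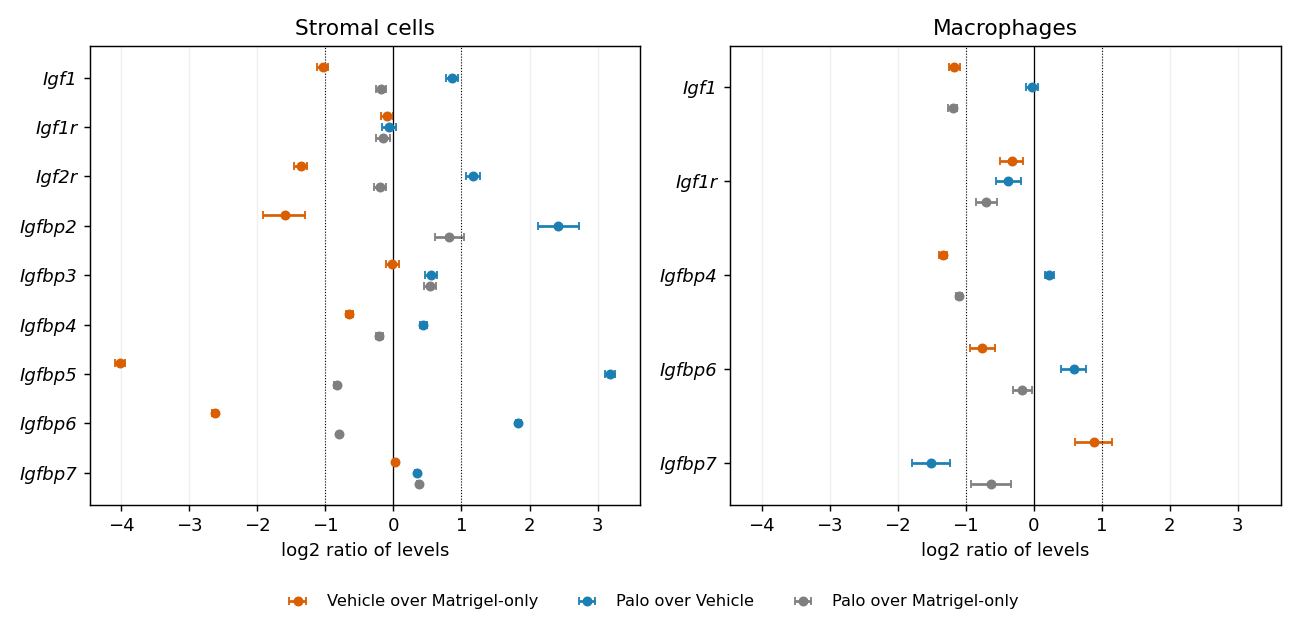
Log2 ratio of levels (horizontal axis) for the members with a mean of at least 10 CPM in stromal cells (left, 9 genes) and macrophages (right, 5 genes), with 95% intervals of counting error and dotted lines at 2-fold. In stromal cells Vehicle over Matrigel-only reaches -4.02 and Palo over Vehicle 3.19 for *Igfbp5*, and every value of Palo over Matrigel-only lies within 2-fold.

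The stromal cells were then divided by other genes, none of them a member, in a fixed order: cartilage matrix cells (at least 2 UMIs each of *Acan* and *Col2a1*), aggrecan cells (at least 2 of *Acan* only), *Pi16* cells (at least 2 of *Pi16*, a gene of fibroblasts common to many tissues), *Sox9* cells (at least 1 of *Sox9*, a transcription factor of cartilage) and the remaining cells. Vehicle held 310 cartilage matrix cells and the other libraries 0, and the aggrecan cells of Matrigel-only, Vehicle and Palo were 0, 386 and 3, so both cannot be told apart from the Vehicle library itself. *Pi16* cells made up 45.4% of Matrigel-only stromal cells (947), 8.38% of Vehicle (115) and 24.2% of Palo (287).

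*Igfbp5* was highest in the *Pi16* cells in all 3 libraries. These cells held 87.7%, 74.8% and 74.0% of the stromal *Igfbp5* UMIs in Matrigel-only, Vehicle and Palo, and the single Vehicle cell with 258 UMIs was among them. Their *Igfbp5* level was 2711 CPM in Matrigel-only, 829 (785 to 875) in Vehicle and 2657 in Palo, that is 17.0, 61.2 and 12.2 times the level of the *Sox9* cells of the same library. Within *Pi16* cells the Palo and Matrigel-only libraries could not be told apart (log2 ratio -0.03, -0.07 to 0.01), and Vehicle lay below Matrigel-only (-1.71, -1.79 to -1.63). *Igfbp6* in *Pi16* cells stood at 3628, 1606 and 2889 CPM, a log2 ratio of -1.18 for Vehicle over Matrigel-only, 0.85 for Palo over Vehicle and -0.33 for Palo over Matrigel-only. Vehicle cells were deeper, so that a threshold of 2 UMIs admits cells with less *Pi16* there. With *Pi16* cells taken instead at 300 CPM of *Pi16*, a choice made after seeing the data, *Igfbp5* stood at 2989, 1077 and 3004 CPM in 873, 94 and 256 cells.

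Both genes were also lower in Vehicle outside the *Pi16* cells. In *Sox9* cells *Igfbp5* stood at 159 CPM for Matrigel-only, 13.6 for Vehicle and 217 for Palo, and in the remaining cells at 309, 55.4 and 223. *Igfbp6* stood at 537, 246 and 559 CPM in *Sox9* cells and at 988, 450 and 792 in the remaining cells. The log2 ratio of Vehicle over Matrigel-only was thus -3.56 and -2.48 for *Igfbp5* and -1.13 in either subset for *Igfbp6*. *Sox9* cells had medians of 10796 Matrigel-only, 18387 Vehicle and 14258.5 Palo UMIs, so a threshold of 1 UMI admits cells with less *Sox9* in Vehicle. Cells with *Acan*, nearly all of them in Vehicle, had also been taken out first, so these subsets are not strictly alike between libraries. Every library was then weighted to the cell shares of the Matrigel-only subsets, which gave the Vehicle cartilage matrix and aggrecan cells no weight. The *Igfbp5* log2 ratio of Vehicle over Matrigel-only was then -1.78 in place of -4.02 and that of *Igfbp6* -1.17 in place of -2.63. For Palo over Vehicle the weighted values were 1.74 for *Igfbp5* and 0.86 for *Igfbp6*, the latter no longer past 2-fold.

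**Figure D3:**
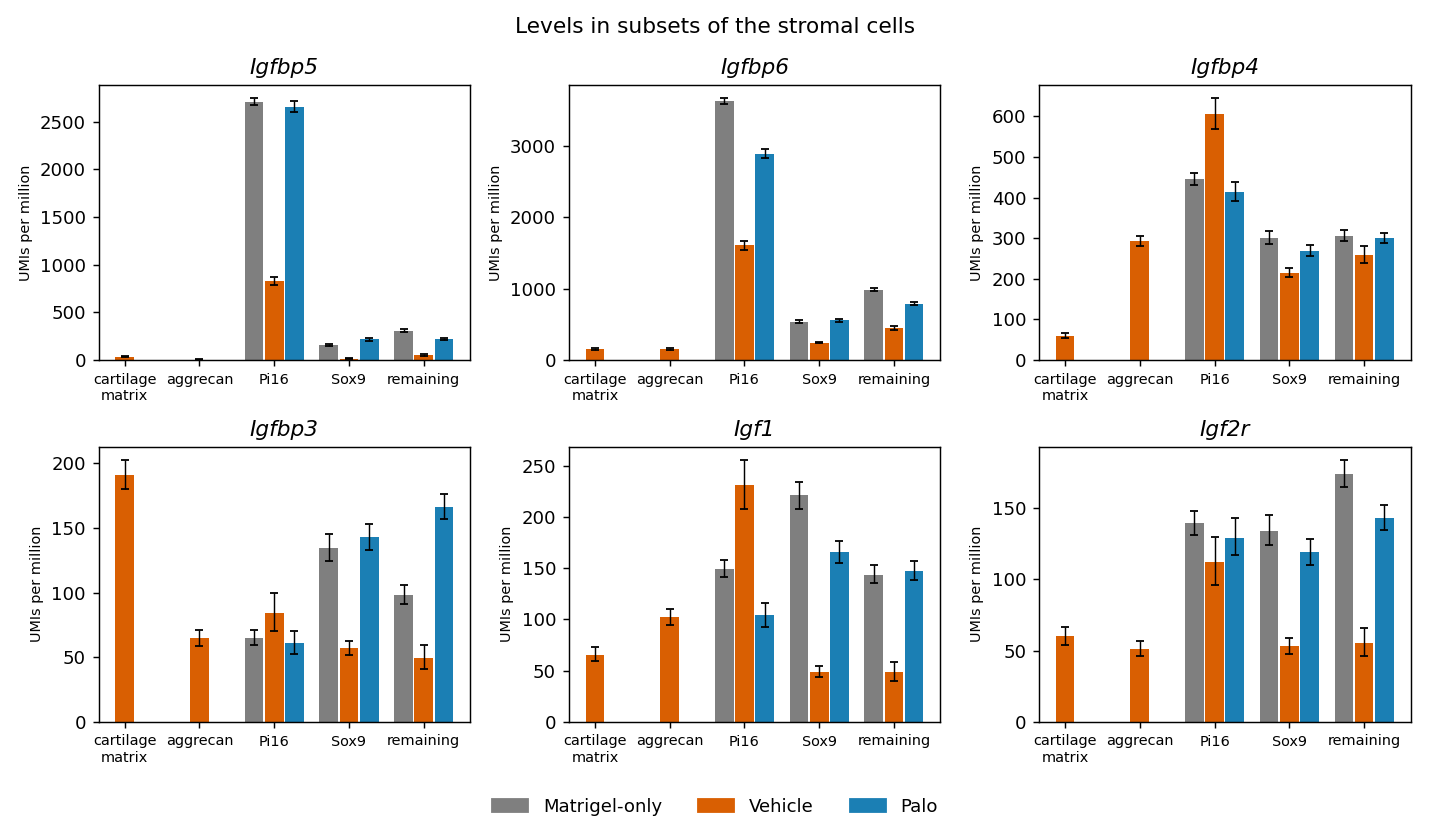
Level (vertical axis, CPM within the subset) of 6 members in 5 subsets of the stromal cells, bars by library with 95% Poisson intervals of counting error; subsets under 30 cells have no bar. *Igfbp5* and *Igfbp6* bars are tallest in the *Pi16* cells of every library, whereas the tallest *Igfbp3* bar (191) is that of the Vehicle cartilage matrix cells.

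*Igf1* and *Igf2r* followed another pattern. In *Sox9* cells *Igf1* stood at 221 CPM (208 to 235) in Matrigel-only, 48.7 (43.8 to 54.1) in Vehicle and 166 (155 to 176) in Palo, and in the remaining cells at 144, 48.9 and 147. In *Pi16* cells the order was turned, with 150 CPM (141 to 158) in Matrigel-only, 231 (208 to 256) in Vehicle and 104 (93.0 to 116) in Palo. The log2 ratio of Vehicle over Matrigel-only was -2.18 in *Sox9* cells, -1.56 in the remaining cells and 0.63 in *Pi16* cells, and weighted to the Matrigel-only shares it was -0.30 in place of -1.04. *Igf2r* in *Sox9* cells stood at 134, 53.1 and 119 CPM and in the remaining cells at 174, 55.4 and 143, but at 140, 112 and 129 in *Pi16* cells. *Igfbp4* stood at 302, 216 and 269 CPM in *Sox9* cells and at 306, 259 and 301 in the remaining cells. In *Pi16* cells it was highest in Vehicle, at 446, 606 and 414 CPM. Weighted to the Matrigel-only shares, its log2 ratio was 0.15 for Vehicle over Matrigel-only and -0.24 for Palo over Vehicle.

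Within the Vehicle library, the cartilage matrix and aggrecan cells differed in the levels of several binding proteins. *Igfbp3* stood at 191 CPM (180 to 203) in cartilage matrix cells and 64.7 (58.7 to 71.1) in aggrecan cells, and cartilage matrix cells held 50.3% of the stromal *Igfbp3* UMIs of that library. *Igfbp4* was the reverse, with 60.2 CPM (54.0 to 66.9) in cartilage matrix and 293 (280 to 306) in aggrecan cells. The log2 ratios of cartilage matrix over aggrecan cells were 1.56 (1.40 to 1.73) for *Igfbp3* and -2.28 (-2.45 to -2.12) for *Igfbp4*. *Igfbp5* was scarce in both, at 32.9 and 4.53 CPM, with a log2 ratio of 2.86 (2.30 to 3.46). *Igfbp6* could not be told apart between them (156 and 153 CPM), and *Igfbp7* stood at 732 and 952. The equal *Igfbp3* levels of Matrigel-only and Vehicle in the whole class were not equal within it: outside the cartilage matrix and aggrecan cells the log2 ratio of Vehicle over Matrigel-only was -0.66. It was -1.23 in *Sox9* cells (134 and 57.1 CPM in Matrigel-only and Vehicle) and -0.98 in the remaining cells (98.3 and 49.7), but 0.37 (0.08 to 0.64) in *Pi16* cells (65.0 and 83.9). With *Pi16* cells taken at 300 CPM of *Pi16*, *Igfbp3* stood at 50.2 CPM in Matrigel-only and 50.3 in Vehicle and could not be told apart.

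In macrophages, *Igf1* and *Igfbp4* were the members with substantial levels, and both were more than 2-fold lower in the 2 rhBMP2 libraries than in Matrigel-only. The adipocyte markers were lower in the same 2 libraries (132 CPM against 13.2 and 10.5), with *Fabp4* at 119, 11.9 and 10.2 CPM and in 2.19%, 3.01% and 2.35% of macrophages, and their part was not tested. *Igf1* stood at 252 CPM (245 to 259) in Matrigel-only, 112 (107 to 118) in Vehicle and 110 (106 to 114) in Palo, and 26.0%, 11.6% and 13.7% of macrophages held it at equal depth (41.1%, 22.1% and 28.1% without thinning). *Igfbp4* stood at 489 (479 to 498), 194 (187 to 202) and 228 (222 to 234), with 42.6%, 21.7% and 24.4% of cells (58.3%, 38.9% and 42.7% without thinning). Lymphocytes held *Igfbp4* at 70.0, 19.4 and 51.8 CPM, from 9, 13 and 8 UMIs. Vehicle and Palo lay close together, unlike in the stromal cells. For *Igf1* they changed order between level and share, with intervals that overlapped in both. The log2 ratios of *Igf1* were -1.17 (-1.25 to -1.09) for Vehicle over Matrigel-only, -1.19 (-1.26 to -1.13) for Palo over Matrigel-only and -0.02 (-0.11 to 0.07) for Palo over Vehicle. Those of *Igfbp4* were -1.33, -1.10 and 0.23. With TMM scaling, which shifts Palo ratios upward in macrophages (factors 1.04 for Matrigel-only, 1.05 for Vehicle and 0.916 for Palo), *Igf1* gave 0.18 for Palo over Vehicle and *Igfbp4* gave -0.92 for Palo over Matrigel-only, which is then short of 2-fold.

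Of the 5 members compared in macrophages, 0 were 2-fold higher and 2 lower in Vehicle over Matrigel-only, where 3.25% of 8043 genes were higher and 2.1% lower. In Palo over Matrigel-only 0 were higher and 2 lower, against 0.833% and 1.32%. In Palo over Vehicle 0 were higher and 1 lower, against 1.49% and 3.94%. The median log2 ratios of the members were -0.75, -0.69 and -0.02 for Vehicle over Matrigel-only, Palo over Matrigel-only and Palo over Vehicle, beside 0.01, -0.16 and -0.17 for all genes. *Igf1r* stood at 38.2 CPM for Matrigel-only, 30.5 for Vehicle and 23.6 for Palo. *Igfbp6* stood at 39.3, 23.3 and 35.0. *Igfbp7* stood at 10.3, 18.9 and 6.63, but a single Vehicle cell held 69 of its 271 UMIs, and without the highest cell of each library the mean over the libraries fell below 10 CPM.

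Several other members were close to the level of stromal genes in macrophage barcodes. As a percent of the stromal level of the same library, 16 stromal genes had a median of 0.948 for Matrigel-only, 1.39 for Vehicle and 0.544 for Palo macrophages, and at most 2.74, 5.36 and 2.30. *Igfbp3* (1.25%, 1.5% and 0.666%) and *Igfbp7* (0.996%, 1.80% and 0.498%) lay within the range of these genes in every library, and *Igfbp5* stood at 0.644%, 2.88% and 0.480%, below or within it. Whether their macrophage levels are background was not tested. *Igfbp6* (2.05%, 7.53% and 3.16%) lay within the range in Matrigel-only and above it in Vehicle and Palo, and *Igfbp2* had only 1, 9 and 6 UMIs, the 9 in 1 cell. *Igf2r* was at 7.92%, 17.7% and 5.66%, above all 16 genes in each library, and *Igf1r* at 42.8%, 36.5% and 29.5%. *Igf1* stood at 153%, 140% and 75.9% of the stromal level and *Igfbp4* at 136%, 84.6% and 73.1%. Macrophages, the more numerous class, held 60.5% of all *Igf1* UMIs of the library for Matrigel-only, 45.6% for Vehicle and 56.7% for Palo.

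**Figure D4:**
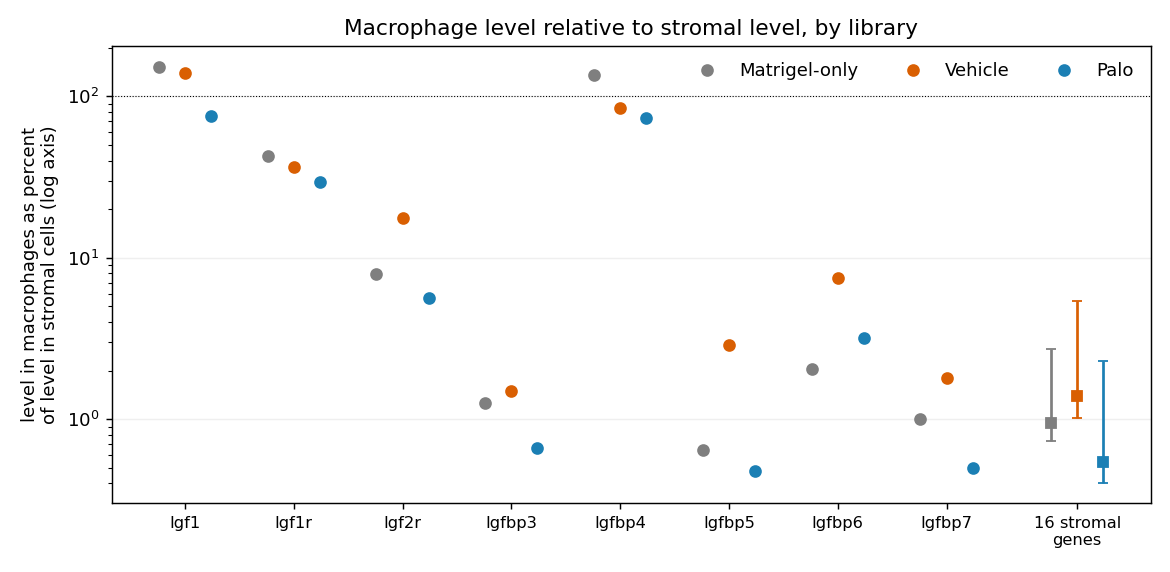
Macrophage level of each member except *Igf2* and *Igfbp2* as a percent of its stromal level in the same library (vertical axis, log scale, dotted line at 100%), with squares for the median and bars for the range of 16 stromal genes. *Igf1*, *Igfbp4*, *Igf1r* and *Igf2r* lie above the range of the stromal genes in all 3 libraries, and *Igfbp3* and *Igfbp7* lie inside it.

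Within the macrophages, *Igf1* and *Igfbp4* were both high in *Stab1* and *Hal* cells and low in *Mmp12* cells. The subsets were *Mmp12* cells (at least 2 UMIs of *Mmp12*, a matrix protease, and 1 of *Itgax*), *Hal* cells (*Hal* and *Retnla*), *Stab1* cells (*Stab1*, a scavenger receptor, and *Ms4a7*) and the remaining cells. *Stab1* cells held 69.3% of the macrophage *Igf1* UMIs for Matrigel-only, 68.9% for Vehicle and 72.2% for Palo, and 63.3%, 66.9% and 69.0% of the *Igfbp4* UMIs. *Igf1* stood at 429, 206 and 245 CPM in *Stab1* cells, at 295, 259 and 172 in *Hal* cells and at 20.0, 7.28 and 6.14 in *Mmp12* cells. *Stab1* cells thus exceeded *Mmp12* cells 21.5-fold, 28.3-fold and 40.0-fold. In Vehicle the *Igf1* level of *Hal* cells was above that of *Stab1* cells, and in the other two libraries below it. *Igfbp4* stood at 760, 347 and 485 CPM in *Stab1* cells, at 586, 314 and 242 in *Hal* cells and at 38.4, 14.6 and 10.9 in *Mmp12* cells, a ratio of *Stab1* over *Mmp12* cells of 19.8, 23.8 and 44.3. *Igf2r* ran the other way, at 34.6, 26.7 and 21.1 CPM in *Mmp12* cells and 5.19, 4.46 and 1.91 in *Stab1* cells. *Mmp12* cells made up 3.97%, 5.69% and 9.08% of macrophages and *Hal* cells 12.8%, 3.04% and 7.15%. Weighted to the Matrigel-only shares, the log2 ratio of Vehicle over Matrigel-only was -0.86 for *Igf1* and -1.12 for *Igfbp4*, and that of Palo over Matrigel-only was -0.88 for *Igf1* and -0.85 for *Igfbp4*, so that only *Igfbp4* in Vehicle stayed past 2-fold.

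**Figure D5:**
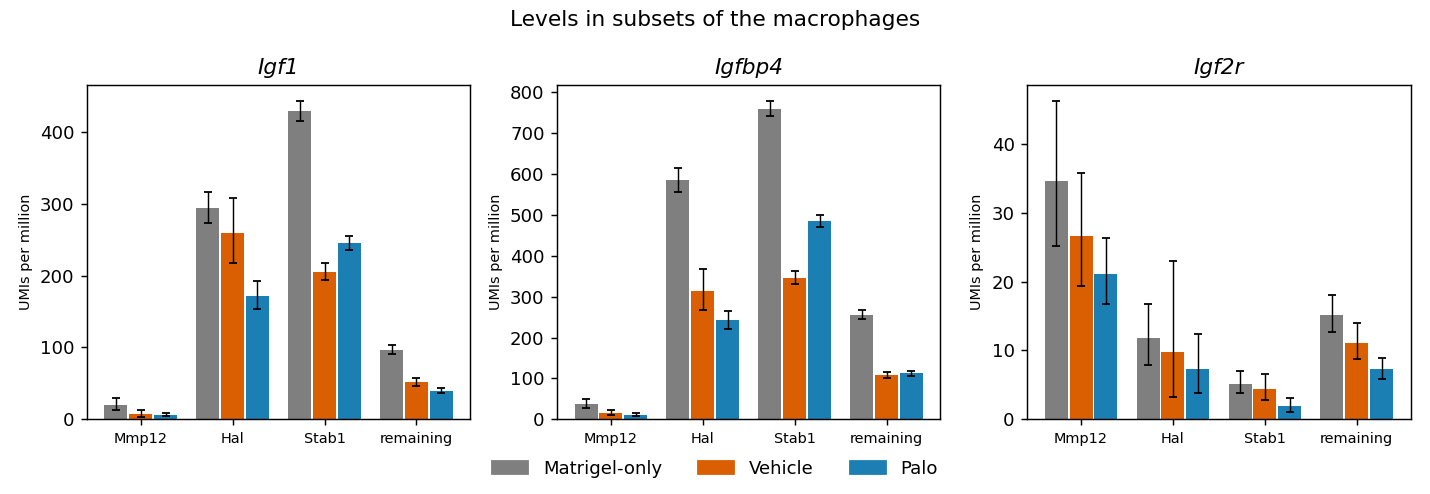
Level (vertical axis, CPM within the subset) of *Igf1*, *Igfbp4* and *Igf2r* in 4 subsets of the macrophages, bars by library with 95% Poisson intervals of counting error. *Igf1* in *Stab1* cells is at 429 for Matrigel-only, 206 for Vehicle and 245 for Palo, and *Igf2r* is highest in *Mmp12* cells of every library.

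Of 36 further genes of the IGF pathway, 25 could be compared in stromal cells. In Vehicle over Matrigel-only, 4 were higher (*Grb14*, *Pappa*, *Stc1* and *H19*) and 3 lower (*Irs2*, *Adamts1* and *Ghr*), where 4.02% of all genes were higher and 9.13% lower, with a median log2 ratio of -0.15 over the 25. In Palo over Vehicle, 1 was higher (*Irs2*) and 3 lower (*Grb14*, *Stc1* and, just past the limit, *Pappa*), against 6.83% and 3.93% of all genes. *Grb14* and *Stc1* lay below 10 CPM in Matrigel-only and Palo and were compared only because of their Vehicle level. *Irs2* lay below 10 CPM in Vehicle (5.00) and was compared because of its Matrigel-only and Palo levels. The calls of *Grb14*, *Stc1* and *Irs2* in these comparisons therefore follow in part from that filter. In Palo over Matrigel-only, against 0.76% and 1.78% of all genes, 0 were higher and 1 was lower, *Foxo1*, a transcription factor downstream of Akt, with 37.5, 26.5 and 18.1 CPM. Of the 15 genes compared in macrophages 0 passed 2-fold in any comparison, where between 0.833% and 3.94% of all genes did in each direction. *Igfbp1* had 0 UMIs in both classes of every library.

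The protease *Pappa*, which cuts *Igfbp4* and *Igfbp5*, stood at 32.3 CPM for Matrigel-only, 99.6 for Vehicle and 49.8 for Palo stromal cells. Its level in Vehicle was highest outside the cartilage subsets, at 144 CPM in *Sox9* and 226 in the remaining cells. Its inhibitors *Stc1* and *Stc2* stood at 9.18, 20.6 and 5.43 CPM and at 22.9, 29.6 and 17.3. Vehicle, in which the RNA levels of *Igfbp4* and *Igfbp5* over the whole stromal class were lowest, was highest for all 3 of these genes. In *Pi16* cells, however, *Igfbp4* was highest in Vehicle (606 CPM, against 446 in Matrigel-only and 414 in Palo). A link between these RNA levels was not tested.

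*Grb14*, an adaptor that inhibits the insulin receptor, showed the largest ratio of the list, with 2.84 CPM for Matrigel-only, 122 for Vehicle and 2.15 for Palo. Within Vehicle it stood at 268 CPM in cartilage matrix, 144 in aggrecan and 46.1 in *Sox9* cells. The receptor substrate *Irs1* stood at 48.7, 83.5 and 43.6 CPM, with 190 in the Vehicle cartilage matrix cells, and *Irs2* at 14.1, 5.00 and 12.4. *Insr*, the insulin receptor, stood at 25.0, 20.3 and 22.2. *Ghr*, the growth hormone receptor, through which *Igf1* is induced in liver and other tissues, stood at 52.2, 25.3 and 44.0 CPM, and the metalloprotease *Adamts1* at 271, 117 and 223. *H19*, an imprinted RNA beside *Igf2*, stood at 697, 1739 and 933.

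The genes whose stromal levels were most like those of each member were found by Pearson's r of log2(CPM + 5) over the 11 sums of a library and a subset with at least 30 cells, among 8679 genes. The sums share libraries and depth, so r is a description. *Igfbp5* was nearest to *Efhd1* (r = 0.98), *Antxr2* and *Fap*, a protease of activated fibroblasts. *Igfbp6* was nearest to *Cmah* (r = 0.991), *Anxa3* and again *Efhd1*, and *Igfbp5* and *Igfbp6* gave 0.972 with each other. *Igf2r* was nearest to *Tcf7l2* (r = 0.969), *Rgma* and *Dusp1*, and *Igfbp4* to *Wbp1l* (r = 0.958), *Sfrp4* and *Tiam1*. *Igf1* was nearest to *Tm2d3* (r = 0.925), *Gyg* and *Arl6ip1*, and *Igf1r* to *Entpd6* (r = 0.922), *Zfp444* and *Rfxank*. *Igfbp2* was nearest to *Mgst3* (r = 0.953), *Ssna1* and *Slk*, *Igfbp3* to *Prickle1* (r = 0.928), *Snx5* and *Trib1*, and *Igfbp7* to *Map7d1* (r = 0.970), *Mvp* and *Hspa4*. Over 12 macrophage sums and 8035 genes, *Igf1* was nearest to *Gas6* (r = 0.993), *Sept8* and *Camk1*, and *Igfbp4* gave 0.984.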

How the data were processed

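Single cells of pooled day 5 masses were measured in 3 libraries, 1 per group. The authors made UMI counts per barcode and gene with Cell Ranger 3.0.2 on mm10, per the submitters' notes, which also name Seurat 3, and deposited these counts without normalization. From these counts, cells were filtered and gated as given in the report, UMIs were summed by class and divided by all UMIs of the class. Shares were thinned by the hypergeometric formula to the lowest of the libraries' 10th percentiles of depth, which left out 54 to 207 stromal cells and 137 to 567 macrophages per library. Ratios carry conditional binomial intervals and shares Clopper-Pearson intervals at 95%. Scrublet (scanpy 1.11.5) called 2, 9 and 4 doublets at its own threshold, under 0.5%, which has not worked, so no doublets were removed in the main values, and the highest scores were left out in an alternative (609, 240 and 426 cells). Python 3.11.15, numpy 2.4.6, scipy 1.17.1 and pandas 2.3.3 were used, and edgeR 4.0.16 (R 4.3.3) for TMM factors. The calculations were tested on simulated data. The named genes were all members, pathway genes past 2-fold in the first 2 stromal comparisons with *Insr*, *Irs1*, *Irs2*, *Pappa*, *Stc1*, *Stc2* and *H19* whatever their values, and the 3 genes nearest to each member. *Foxo1* was named after its value was seen. Members, lists and subset rules were chosen with earlier results of these data known.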

Additional observations from a re-analysis of the deposited data

Results flagged for a closer look

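For *Igfbp7* the log2 ratio of Palo over Vehicle was 0.34 in stromal cells and -1.51 in macrophages, opposite directions in the 2 classes. Weighted to the Matrigel-only subset shares, it was -0.16 in stromal cells and -2.20 in macrophages, so the directions were then alike. In Vehicle and Palo, *Igfbp7* stood at 1404 and 967 CPM in *Pi16* cells and at 1237 and 1570 in *Sox9* cells. The remaining stromal cells had 1306 and 1288. With 1 library per group the difference was not tested. As a percent of the stromal level, the macrophage level lay within the range of the 16 stromal genes in each library. Without the highest cell of each library the macrophage ratio was -1.24.

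Signal was also found in cells that the comparisons did not use. Among Vehicle cells in neither class, 11 cells with at least 3 UMIs over 7 endothelial markers held 173 of the 190 *Igfbp3* UMIs (1608 CPM, 1377 to 1866) and 393 of the 512 *Igfbp7* UMIs (3652 CPM, 3300 to 4032) of the cells left over after all classes. Of these, 1 cell held 82 of the *Igfbp3* UMIs and 1 cell held 288 of the *Igfbp7* UMIs, so neither level is that of 11 cells alike. A further 7 Vehicle cells, chosen for at least 5 *Igfbp5* UMIs, held 548 of 552 *Igfbp5* UMIs of the leftover cells (5390 CPM), 343 of them in 1 cell. Of these 7 cells, 3 carried the milk protein genes *Csn3* (284 of 288 UMIs of the whole library) and *Lalba* (121 of 124), and 3 others carried *Myod1*, a muscle transcription factor (18, 2 and 13 UMIs). Both sets of cells were chosen after their values were seen, and no cell type is named for them.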

How the results depend on the processing

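No paired analysis was possible because each group is 1 library, which also leaves no replicate to leave out. Of 9 stromal calls past 2-fold, followed through 13 alternatives (117 values), 108 values stayed past 2-fold and 0 changed sign, and of 5 macrophage calls 60 of 65 values did and 0 changed sign. Weighting to the Matrigel-only subset shares left 2 of 5 stromal calls for Vehicle over Matrigel-only (*Igfbp5* and *Igfbp6*), 1 of 4 for Palo over Vehicle (*Igfbp5*) and 0 of 2 macrophage calls for Palo over Matrigel-only. That comparison kept 1 of 2 (*Igf1*) with TMM or with *Csf1r* and *C1qa* both required. In stromal cells, Palo over Matrigel-only had 0 calls, but 1 (*Igfbp2*) with no cell filter, with the mean of per-cell CPM or without the highest cell, and 1 (*Igf2*) with no minimum level. With no minimum level the macrophage calls numbered 4 for Vehicle over Matrigel-only, 3 for Palo over Vehicle and 5 for Palo over Matrigel-only, the added ones being *Igf2*, *Igfbp2* and *Igfbp5*. The macrophage calls of *Igf2* come from a floor, as 0 UMIs were set to 3. Palo, with its 1 UMI, thus came out lower, and no level is read from this. Without the highest cell, chosen after seeing the data, Palo over Vehicle in macrophages had 0 calls. The causes were not tested. Weighting used shares of cells rather than of UMIs. In stromal cells it also left out the Vehicle cartilage matrix and aggrecan cells, so it did not change subset shares alone. Few UMIs stand behind *Igf2*, *Igfbp2* and the macrophage levels of *Igfbp3* and *Igfbp5*.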

Other observations

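Outside both classes, *Igf1r* was counted in neutrophils at 387 CPM (217 to 638) in Vehicle, from 15 UMIs in 54 cells, and at 482 CPM (156 to 1124) in Palo, from 5 UMIs in 8 cells. Neutrophils were shallow, with medians of 649 and 790.5 UMIs, and Matrigel-only held 1. In Vehicle basophils *Igfbp7* had 19 UMIs in 75 cells (161 CPM, 96.6 to 251). *Igf2r* in lymphocytes had 8 Matrigel-only, 38 Vehicle and 13 Palo UMIs, for 62.2, 56.6 and 84.2 CPM.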
